A study of Mus musculus with 5 samples.

Results

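The platelet and megakaryocyte genes Pf4, Selp, Vwf, Itga2b, Gp1ba, Gp9, Mrvi1 and Fli1 were described on the arrays of 5 FLT3-ITD constructs. The platform annotation tied 11 of the 45101 probe sets to 7 of these 8 genes; Gp1ba was not analysed here. All 7 passed the filter on low values (2.75, which each exceeded on every array), as did 9621 of the 18193 genes with a probe set. The 8 genes were selected on their role and on earlier readings of the same arrays, in which Pf4 and Selp were low on ITD613 and Vwf and Mrvi1 high on ITD78. Their values are therefore given as a description, with no test.

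The cells were 32D cells, a mouse myeloid progenitor line, stably transduced with a retroviral FLT3-ITD construct (ITD613, ITD78, ITD598, ITD602 or ITD611), starved for 3 h and then given a tyrosine kinase inhibitor (TKI) for 1 h. An internal tandem duplication (ITD) makes FLT3, a tyrosine kinase receptor found on blood progenitors, signal without its ligand. The series compares the constructs with each other, and no array of cells without a construct was analysed here. Every array shared the transduction, the starvation and the inhibitor, and the labels say neither what the construct numbers stand for, nor which inhibitor was used, nor whether the cells were a clone or a pool.

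Each construct had 1 array, so the number of arrays limits the precision: there is no replicate error, no p-value and no difference that could be held against it. Values are RMA values on the log2 scale, on which a difference of 1 is 2-fold. Array medians lay between 1.99 and 2.06. As a yardstick, 95% of the 9621 genes differed by less than 0.33 between the closest pair of arrays, ITD598 and ITD611. The same figure was 0.84 between ITD613 and ITD78. Against ITD598, ITD602 and ITD611 it was 1.11 to 1.23 for ITD613 and 0.58 to 0.76 for ITD78. Any true difference of a pair also enters its figure. The title of the ITD602 array carries another date-like string than the rest, and an effect of the run cannot be told apart there from that of the construct. Its 6 probe sets for the spiked-in control bioB read 5.74 to 6.59, against 1.70 to 3.47 on the other 4 arrays. Values up to 3.74 lie in a range where at least 100 probe sets of an array share 1 value, and differences that reach into it are hard to size.

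Megakaryocytes are the marrow cells that shed platelets, and they share a progenitor with red cells. Platelets carry alpha granules with chemokines, adhesive proteins and P-selectin, and hold on to damaged vessel walls with a glycoprotein Ib-IX-V complex that binds von Willebrand factor and with the fibrinogen receptor, integrin alpha IIb beta 3. Transcription factors of the GATA, ETS and RUNX families, Fli1 among them, are known to drive these genes. Myeloid progenitor lines such as 32D are not megakaryocytes, and the levels below are those of a bulk culture, in which fewer cells of a type and less RNA per cell cannot be told apart.

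The granule genes did not all set the same array apart. Pf4 and Selp were low on ITD613 and similar on the other 4 arrays, whereas Vwf was high on ITD78. Pf4, which encodes the alpha-granule chemokine platelet factor 4, read 3.09 on ITD613, 5.99 on ITD78, 6.44 on ITD598, 6.51 on ITD602 and 6.05 on ITD611. ITD613 stood alone below 4 arrays that lay between 5.99 and 6.51. The distance from ITD613 to the nearest of them, ITD78, was -2.90, or 7.48-fold, and -2.25 with all values under 3.74 raised to that level. Pf4 ranked 2 of 9621 genes by its distance below the other arrays.

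Selp encodes P-selectin, the adhesion receptor that alpha granules bring to the platelet surface and that endothelial cells also store. Its probe set with the highest mean read 2.99 on ITD613, 6.12 on ITD78, 6.06 on ITD598, 5.74 on ITD602 and 5.49 on ITD611. The 2 further Selp probe sets read 1.91 and 2.51 on ITD613, 5.93 and 5.54 on ITD78, 6.03 and 5.66 on ITD598, 5.57 and 5.43 on ITD602 and 5.34 and 4.93 on ITD611. All 3 probe sets thus placed ITD613 lowest and ITD611 next. They lay 2.42 to 3.42 below ITD611 on the log2 scale, and the distance was -1.19 to -1.75 with low values raised. Among the other arrays they did not keep 1 order: ITD78 led on the first probe set and ITD598 on the others, by 0.06 to 0.12.

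Vwf encodes von Willebrand factor, the large adhesive protein that megakaryocytes and endothelial cells make. It read 3.91 on ITD613, 6.56 on ITD78, 2.96 on ITD598, 3.47 on ITD602 and 3.12 on ITD611. ITD78 stood 2.65 (6.27-fold) above the next array, ITD613, the second largest such distance of the 9621 genes on ITD78. ITD613 in turn lay 0.44 above ITD602, but ITD598, ITD602 and ITD611 were all in the low range, where their order says little. The gap between ITD78 and ITD613 was the same with low values raised, since both lie above 3.74.

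**Figure D1:**
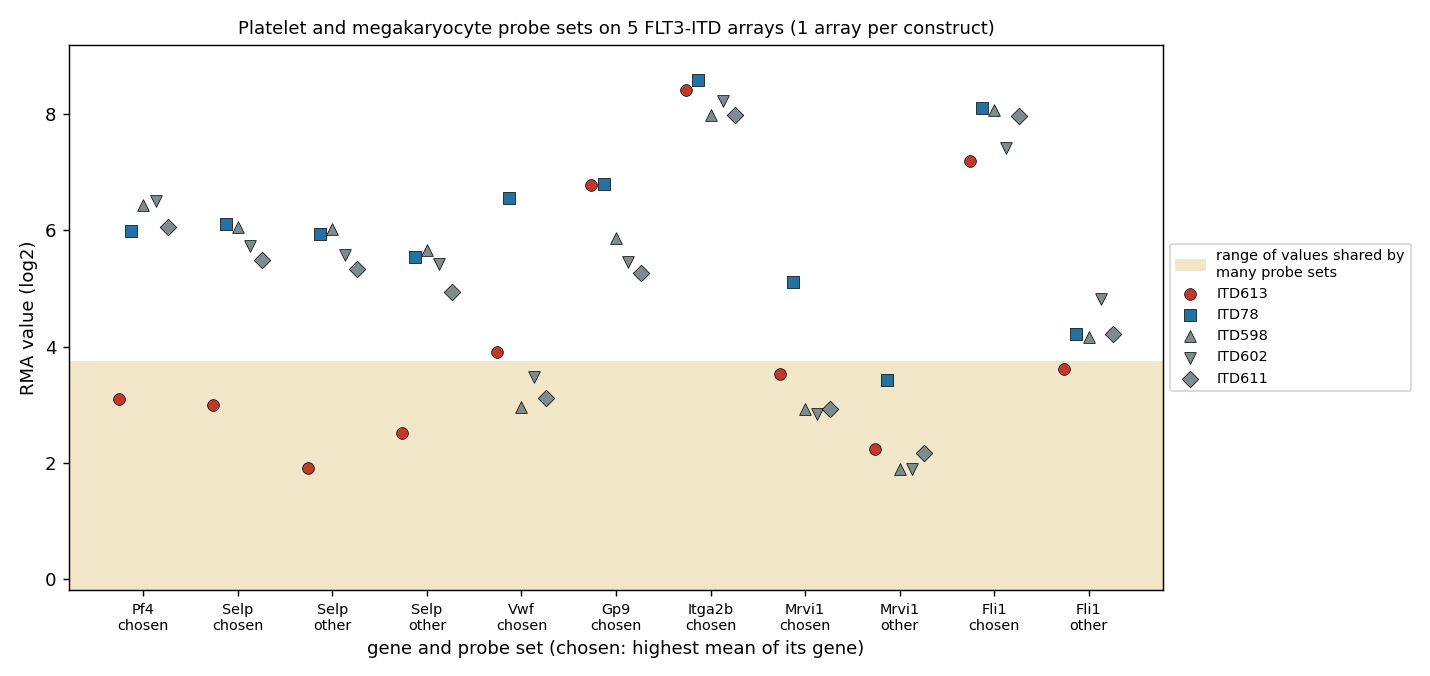
RMA values (log2, vertical axis) of the 11 probe sets of 7 platelet and megakaryocyte genes (horizontal axis) on the ITD613, ITD78, ITD598, ITD602 and ITD611 arrays, 1 point per array; the shaded band is the range up to 3.74 in which many probe sets share a value. ITD613 lies at 3.09 for Pf4 and at 1.91 to 2.99 for Selp, with every other array at 4.93 or above, and ITD78 leads for Vwf (6.56) and for both Mrvi1 probe sets (5.12 and 3.43).

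The adhesion receptor genes did not follow Pf4 and Selp. Gp9 encodes glycoprotein IX, a small subunit that the von Willebrand factor receptor needs to reach the surface. It read 6.79 on ITD613, 6.79 on ITD78, 5.87 on ITD598, 5.46 on ITD602 and 5.26 on ITD611. ITD613 and ITD78 were level and lay 0.92 above ITD598, so ITD613 was at the top for Gp9 and at the bottom for Pf4 and Selp. From top to bottom Gp9 ranged over 1.53.

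Itga2b encodes integrin alpha IIb (CD41), an early surface marker of the megakaryocyte lineage that some blood progenitors also carry. It read 8.42 on ITD613, 8.58 on ITD78, 7.99 on ITD598, 8.23 on ITD602 and 7.99 on ITD611. ITD613 and ITD78 again held the 2 highest readings, but the whole range was 0.59 and each step in the order was at most 0.24, inside the 0.33 yardstick. Both receptor genes have 1 probe set, so neither has a second reading on the array.

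Mrvi1 encodes IRAG, a substrate of cGMP-dependent protein kinase that restrains calcium release through the inositol trisphosphate receptor in platelets and smooth muscle. Its probe set with the highest mean read 3.53 on ITD613, 5.12 on ITD78, 2.92 on ITD598, 2.83 on ITD602 and 2.92 on ITD611. The other Mrvi1 probe set read 2.24 on ITD613, 3.43 on ITD78, 1.90 on ITD598, 1.90 on ITD602 and 2.16 on ITD611. ITD78 was the highest on both, by 1.59 and 1.19 over ITD613. All readings but that of 5.12 lie in the low range; with low values raised the first distance was 1.38 and the second was 0, so only 1 of the 2 probe sets gives a distance that can be sized.

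Fli1, an ETS-family transcription factor that megakaryocyte genes need, had the narrowest range after Itga2b, at 0.92. Its stronger probe set read 7.19 on ITD613, 8.11 on ITD78, 8.08 on ITD598, 7.42 on ITD602 and 7.98 on ITD611. ITD613 was the lowest, at -0.71 relative to the average of the other 4 (7.90 ± 0.32, SD over constructs, n = 4), but just 0.23 below ITD602. The weaker Fli1 probe set read 3.61 on ITD613, 4.21 on ITD78, 4.17 on ITD598, 4.82 on ITD602 and 4.21 on ITD611. It too placed ITD613 lowest, while ITD602 was the highest on it and the second lowest on the stronger probe set, so that the position of ITD602 depends on the probe set.

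Set side by side, 2 of the 7 genes, Pf4 and Selp, were at least 2-fold below every other array on ITD613, where 0.925% of the 9621 genes were, and 0 were above, where 1.31% were. On ITD78, 2 of 7, Vwf and Mrvi1, were at least 2-fold above every other array, and 0 were below; 0.052% of all genes were called in each direction there. No member was set apart in this way on ITD598 (0.0208% of all genes above and 0% below), on ITD602 (0% above and 0.0728% below) or on ITD611 (0% in both directions). Because these readings chose the genes, the counts describe the choice and nothing is read from them. The ITD613 and ITD78 counts were the same when any other array was left out, ITD602 included. Leaving an array out cannot shorten the distance to the nearest other array, so no call could be lost in this way.

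Between ITD613 and ITD78 directly, 4 of 7 members were at least 2-fold apart, against 2.96% of all genes. All 4 were lower on ITD613 (1.26% of all genes) and none was higher (1.7%). The differences ITD613 minus ITD78 were -2.90 for Pf4, -3.12 for Selp, -2.65 for Vwf and -1.59 for Mrvi1. The other 3 were -0.92 for Fli1, -0.16 for Itga2b and -0.0039 for Gp9.

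**Figure D2:**
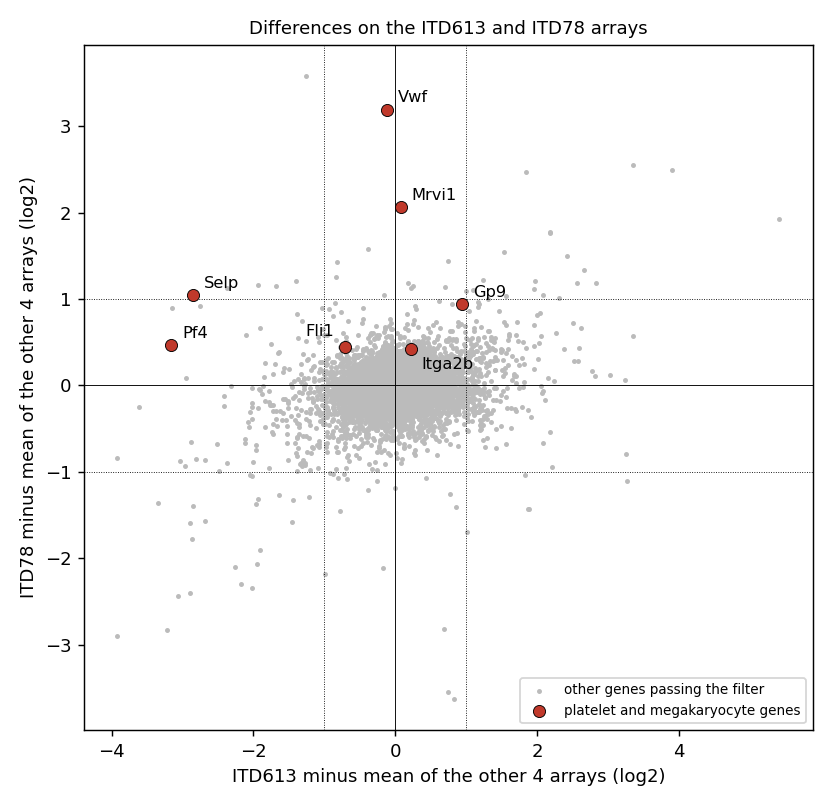
Difference of each gene on ITD613 (horizontal axis) and on ITD78 (vertical axis) from the mean of the other 4 arrays (log2), for the 9621 genes that passed the filter (grey) and the 7 members (red); dotted lines mark 2-fold. Pf4 (-3.16) and Selp (-2.86) lie far to the left, Vwf (3.19) and Mrvi1 (2.07) far up, and Gp9 lies up and to the right, with 0.94 on ITD613 and 0.95 on ITD78.

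Over the 5 arrays, 5 of the 7 members ranged at least 2-fold, as did 10.4% of all genes, and the members' median range was 2.29 against 0.43 for all genes, which again describes genes picked for their readings. ITD78 was the highest array for 6 members, all but Pf4, and for 12.3% of all genes. Its lead was at most 0.16 for Selp, Itga2b, Gp9 and Fli1, so that it counts for little in those 4. ITD613 was the lowest array for Pf4, Selp and Fli1, 3 of 7, and for 31.1% of all genes. ITD613 and ITD78 held the 2 highest readings for Vwf, Itga2b, Gp9 and Mrvi1, 4 of 7, and for 19.8% of all genes.

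The genes most like the members over the 5 arrays were found by the root mean square difference of the centred log2 values. For Pf4 these were Tuba8 (0.18), Cd69 (0.24) and Pdp1 (0.29), an alpha-tubulin, a leukocyte activation antigen and a phosphatase of pyruvate dehydrogenase. For Selp they were Cd69 (0.17), Pdp1 (0.21) and Pf4 itself (0.32). Cd69 read 4.53 on ITD613, 7.76 on ITD78, 7.88 on ITD598, 7.52 on ITD602 and 7.54 on ITD611, the same single low array as Selp. For Vwf the nearest was Mrvi1 (0.49), then Ly6f (0.57) and Cltrn (0.72), and for Mrvi1 they were Cltrn (0.31), Ahi1 (0.37) and Gadd45g (0.37). Pf4 and Selp were selected as low on ITD613, and Vwf and Mrvi1 as high on ITD78. That members lie near each other follows from this selection.

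For Gp9 the nearest genes were Apol8 (0.092), Stab1 (0.11), a scavenger receptor of macrophages and sinusoidal endothelium, and Smim6 (0.12). Stab1 read 4.68 on ITD613, 4.47 on ITD78, 3.40 on ITD598, 3.19 on ITD602 and 3.00 on ITD611, the Gp9 order but for its top pair. Fli1 and Itga2b ranged less than 2-fold and were not matched.

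Other granule and clotting genes had no common direction on ITD613. Of 16 listed, Pf4, Selp and Vwf included, 14 had a probe set, 9 passed the filter and 5 of those ranged at least 2-fold; 2 of the 9 passed through some of the arrays alone. Thbs1, which encodes the granule protein thrombospondin 1, read 5.67 on ITD613, 4.35 on ITD78, 2.21 on ITD598, 2.12 on ITD602 and 2.65 on ITD611. On this probe set it was thus high on ITD613, where Pf4 and Selp were low, while ITD598, ITD602 and ITD611 lay in the low range. The other Thbs1 probe set was in the low range throughout, at 1.46 on ITD613 and 1.25 to 1.31 elsewhere. Mmrn1, which encodes multimerin 1, the granule partner of factor V, read 4.61 on ITD613, 5.62 on ITD78, 5.52 on ITD598, 5.62 on ITD602 and 5.55 on ITD611. It was lowest on ITD613, at a distance of -0.91 from the nearest array. Over the 6 passing genes other than Pf4, Selp and Vwf, the median difference from the mean of the other 4 was -0.14 on ITD613 and 0.15 on ITD78, beside 0.01 and -0.03 for all genes.

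Of the 14 adhesion receptor genes, Gp9 and Itga2b included, 13 had a probe set and 8 passed. Of the 8, 4 ranged at least 2-fold, the selected Gp9 among them, against 10.4% of all genes. Gp5, whose product is glycoprotein V of the same complex as Gp9, read 4.47 on ITD613, 3.20 on ITD78, 2.73 on ITD598, 2.69 on ITD602 and 2.46 on ITD611. ITD613 was its single reading above the low range. Itgb3, the beta 3 partner of Itga2b, read 7.24 on ITD613, 6.82 on ITD78, 6.02 on ITD598, 6.15 on ITD602 and 6.28 on ITD611. ITD613 and ITD78 were again the top pair for both of these. The other Itgb3 probe set, in the low range throughout, read 3.41 on ITD613, 2.97 on ITD78, 2.72 on ITD598, 2.97 on ITD602 and 3.08 on ITD611. ITD78 was thus not in its top pair. By the probe set with the highest mean, and leaving aside the selected Gp9 and Itga2b, ITD613 and ITD78 were the top pair for 4 of the 6 passing genes. These were Itgb3, Itga6, Gp5 and Cd9, and the same held for 19.8% of all genes. Gp5 and Gp1bb passed the filter through some of the arrays alone. Itgb1, the beta 1 integrin chain found on most cells, went the other way, with 5.30 on ITD613, 6.11 on ITD78, 6.24 on ITD598, 6.42 on ITD602 and 6.53 on ITD611. Gp1bb, a further subunit of the complex, read 2.40 to 2.86 and was in the low range throughout. Gp1ba, also of that complex, was not analysed.

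Of the 13 receptor genes of platelet signalling, 10 had a probe set and 6 passed, 1 of them through some of the arrays alone. Of the 6, 2 ranged at least 2-fold, against 10.4% of all genes. P2ry1, an ADP receptor, read 4.94 on ITD613, 3.87 on ITD78, 3.47 on ITD598, 2.91 on ITD602 and 3.47 on ITD611. F2rl2, the protease-activated receptor 3 that mouse platelets use as a thrombin cofactor, read 7.01 on ITD613 and 6.48 on ITD78, against 5.35 on ITD598, the lowest, and 6.07 on ITD611, the highest of the other 3. Both were highest on ITD613 and second on ITD78. F2r, the gene of 1 thrombin receptor, PAR1, was strong and nearly level, at 11.10 to 11.48. F2rl3, the gene of another, PAR4, read 1.11 to 1.69 and did not pass the filter.

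Among 16 transcription factor genes of the lineage, Fli1 included, 14 passed the filter, all of them on every array. Of the 14, 6 ranged at least 2-fold, against 10.4% of all genes. Gata1, the factor that red cells and megakaryocytes share, read 8.14 on ITD613, 7.01 on ITD78, 6.29 on ITD598, 5.84 on ITD602 and 6.05 on ITD611. Nfe2, the p45 subunit needed for platelet shedding, read 8.23 on ITD613, 7.49 on ITD78, 6.75 on ITD598, 6.69 on ITD602 and 6.56 on ITD611. Gfi1b, a repressor of the same lineages, read 6.87 on ITD613, 6.30 on ITD78, 5.66 on ITD598, 5.59 on ITD602 and 5.54 on ITD611. ITD613 led and ITD78 came second for these 3 genes, as for Gp5 and Itgb3. Runx1 read 4.03 on ITD613, 4.86 on ITD78, 5.11 on ITD598, 5.45 on ITD602 and 5.06 on ITD611, but just 2 of its 6 probe sets shared the lower reading on ITD613. The list therefore went both ways, with Gata1, Nfe2, Gfi1b and Tal1 at least 2-fold above the mean of the other 4 on ITD613 and Runx1 below it.

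Of the 16 genes for shape, granule packing and platelet shedding, all with a probe set, 15 passed and 0 ranged at least 2-fold, against 10.4% of all genes. Their median range was 0.51, against 0.43 for all genes, and 1 gene passed 2-fold with _x_at and _s_at probe sets left out. Flna, which encodes the actin cross-linker filamin A, ranged most among them, over 0.90. Fermt3, whose product kindlin-3 activates platelet integrins, read 11.12 to 11.63, and Myh9, the non-muscle myosin heavy chain, 9.76 to 10.25. Tubb1, the beta-tubulin of platelets, reached 2.75 at most. Of the 10 genes around Mrvi1 in cGMP and calcium signalling, 5 passed and 2 ranged at least 2-fold, against 10.4% of all genes. The 2 were Mrvi1 itself and Itpr2, an inositol trisphosphate receptor gene that passed through some of the arrays alone. Itpr2 read 4.80 on ITD613, 3.38 on ITD78, 3.24 on ITD598, 2.60 on ITD602 and 2.99 on ITD611 by its probe set with the highest mean. The other Itpr2 probe sets were in the low range throughout, at 0.98 to 2.76. The kinase gene Prkg1 read 1.27 to 1.52, far into the low range, on the same arrays on which Mrvi1 reached 5.12.

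**Figure D3:**
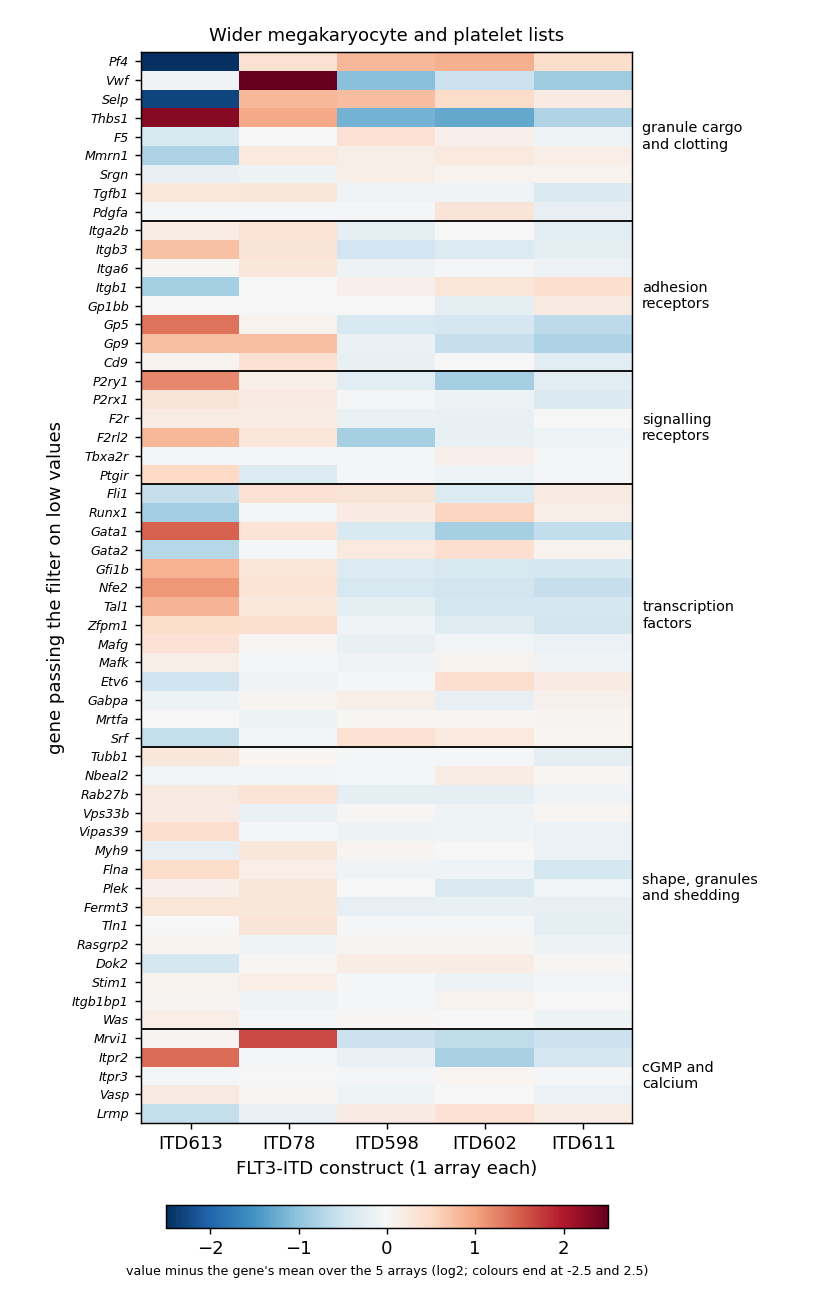
Log2 value of each gene minus its mean over the 5 arrays (colour) for the genes of the wider lists that passed the filter (rows) on the ITD613, ITD78, ITD598, ITD602 and ITD611 arrays (columns). Pf4 and Selp are blue and Thbs1, Gp5, P2ry1, Gata1, Nfe2 and Itpr2 red on ITD613, Vwf and Mrvi1 are red on ITD78, and the 15 genes for shape, granules and shedding are pale on every array.

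Most 2-fold ranges in these platelet lists rested on the ITD613 array. Without it, 2 granule genes, 1 adhesion receptor gene, 1 agonist receptor gene, 1 transcription factor gene and 1 gene around Mrvi1 still ranged at least 2-fold. The last of these counts was also 1 without ITD78. Several defining platelet genes were below the filter value of 2.75 on every array: Ppbp, a platelet chemokine, read 0.41 to 0.99, Gp6, the collagen receptor, 1.63 to 1.97, Clec1b 1.22 to 1.56, Treml1 2.22 to 2.40 and P2ry12 0.86 to 1.22. These 5 genes were named after their values were seen, and most listed genes were not as low. Depending on the array, 6 to 8 of 14 granule genes, 6 to 7 of 13 adhesion receptor genes and 3 to 4 of 10 signalling receptor genes were above 3.74. For transcription factors it was 13 of 16 on every array, and for shape, granules and shedding 14 of 16.

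The line's own markers and those of other cell types were read on the same arrays. Of 12 myeloid progenitor genes, 7 were above 3.74 on ITD613 and on ITD78 and 8 on each other array, with Elane, Cebpa, Cd34 and Il3ra in the low range throughout. The widest-ranging was Ms4a3, a membrane protein gene of granulocyte progenitors, with 4.18 on ITD613, 2.63 on ITD78, 5.74 on ITD598, 5.05 on ITD602 and 4.01 on ITD611. Ctsg, a granule protease gene, read 6.24 on ITD613, 7.42 on ITD78, 9.09 on ITD598, 9.17 on ITD602 and 8.77 on ITD611. ITD78 was thus lowest for Ms4a3 and ITD613 for Ctsg. Mpo, which encodes myeloperoxidase, was also lowest on ITD78 (4.52), and Prtn3, which encodes proteinase 3, on ITD613 (5.55). Endothelial cells also make Vwf and Selp, and 1 or 2 of 15 endothelial markers were above 3.74 on any array. Their summed linear level (2 raised to each log2 value) was 93.1 on ITD613, 96.3 on ITD78, 97.6 on ITD598, 98.2 on ITD602 and 95.2 on ITD611. Egfl7 (4.48 to 4.83), Pecam1 (3.37 to 4.16) and Eng (3.58 to 3.71) held the highest readings among them on every array. Cdh5 (0.92 to 1.14), Tek (0.75 to 1.21) and Sele (0.67 to 1.01) lay near the bottom of the scale. The part of endothelial genes in the Vwf and Selp readings was not tested. Smooth muscle also makes Mrvi1; of 8 smooth muscle markers at most 1, Acta2, was above 3.74 (3.56 on ITD613 and 4.29 to 4.60 on the other 4), and Myh11, Cnn1 and Myocd read at most 2.16.

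Red cell markers differed between the arrays, by more in summed level than the other 4 marker lists. Of 9 with a probe set, 6 were above 3.74 on ITD613, 4 on ITD78 and 1 on each other array. Their summed linear level was 1234 on ITD613, 466 on ITD78, 204 on ITD598, 136 on ITD602 and 170 on ITD611, in which Klf1, at 10.01 on ITD613, weighs most. Slc4a1, the red cell anion exchanger, read 5.55 on ITD613, 4.91 on ITD78, 1.22 on ITD598, 1.41 on ITD602 and 1.22 on ITD611. Its further probe sets were in the low range throughout. The stronger of them read 3.15 on ITD613, 3.45 on ITD78 and 1.35 to 1.46 on the rest, and the weaker read 0.97 to 1.20. Rhag, a Rh-family channel gene, read 5.70 on ITD613, 5.38 on ITD78, 3.37 on ITD598, 2.28 on ITD602 and 3.08 on ITD611, and Tspo2 read 5.06 on ITD613 and at most 2.98 elsewhere. Of the 7 red cell genes that passed the filter, 5 did so through some of the arrays alone, Slc4a1, Rhag and Tspo2 among them. These 5 were thus kept for the arrays on which they were high. Epor, which passed on every array, read 3.08 to 3.24, with ITD613 not in its top pair. By the probe set with the highest mean, ITD613 and ITD78 were the top pair for Klf1, Slc4a1, Rhag and Tspo2. The same held for Gp9, Gp5, Itgb3, Gata1 and Nfe2, while ITD613 was lowest for Pf4 and Selp. The part of red cell genes in those readings was not tested. Of 8 mast cell and basophil markers, 3 were above 3.74 on ITD613, 0 on ITD78 and 1 on each other array. Of the 4 that passed the filter, 3 did so through some of the arrays alone, Cpa3 and Fcer1a among them. The basophil protease gene Mcpt8 read 5.70 on ITD613, 2.90 on ITD78, 5.94 on ITD598, 5.88 on ITD602 and 5.36 on ITD611. Cpa3, the mast cell carboxypeptidase gene, read 4.56 on ITD613, 3.66 on ITD78, 2.53 on ITD598, 2.48 on ITD602 and 2.72 on ITD611. Fcer1a, for the alpha chain of the IgE receptor, read 3.96 on ITD613 and at most 0.72 elsewhere. On ITD78, where Vwf and Mrvi1 were high, Mcpt8 was thus lowest and Cpa3 second highest, so the list had no common direction there. Whether these cells' genes bear on Vwf and Mrvi1 was not tested.

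**Figure D4:**
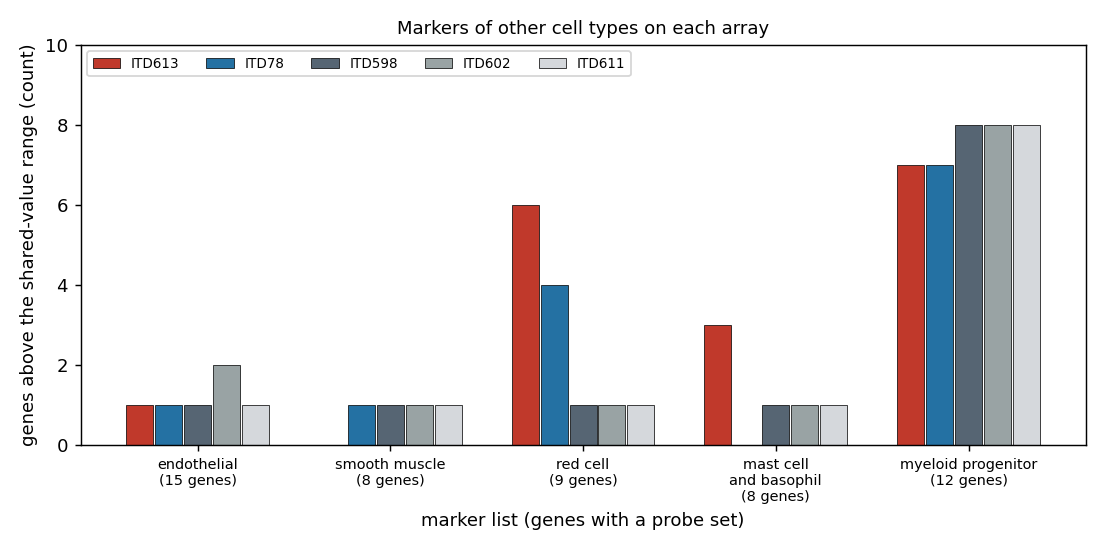
Number of marker genes with a value above 3.74 (log2; vertical axis) in 5 marker lists (horizontal axis) on the ITD613, ITD78, ITD598, ITD602 and ITD611 arrays (bars, left to right). Red cell markers number 6 on ITD613, 4 on ITD78 and 1 on the other 3 arrays, endothelial and smooth muscle markers number at most 2 on any array, and myeloid progenitor markers number 7 or 8.

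The promoters of Pf4 and Selp, low on ITD613, are shown beside those of the adhesion receptor genes Gp9 and Itga2b, which were not. The promoter set used here, drawn from RefSeq (GRCm38.p6), held 7 promoters of 6 of the 8 genes and had no entry for Vwf or Fli1. Each sequence is the 250 bases before the gene's start, 5′ to 3′ on the gene's strand, at chr5:90772185-90772434 (+) for Pf4, chr1:164115014-164115263 (+) for Selp, chr6:87777820-87778069 (+) for Gp9 and chr11:102469884-102470133 (-) for Itga2b. Capitals mark exact matches on either strand to the motifs named after the sequences.
Pf4: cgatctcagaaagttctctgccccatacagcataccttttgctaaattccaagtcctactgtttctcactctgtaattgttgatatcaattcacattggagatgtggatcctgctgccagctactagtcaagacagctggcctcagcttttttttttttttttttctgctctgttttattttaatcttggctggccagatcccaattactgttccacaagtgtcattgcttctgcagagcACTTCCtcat
Selp: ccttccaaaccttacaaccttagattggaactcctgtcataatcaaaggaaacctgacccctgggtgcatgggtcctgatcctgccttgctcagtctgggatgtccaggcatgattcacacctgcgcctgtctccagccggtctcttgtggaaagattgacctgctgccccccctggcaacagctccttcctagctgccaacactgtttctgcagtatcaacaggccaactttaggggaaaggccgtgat
Gp9: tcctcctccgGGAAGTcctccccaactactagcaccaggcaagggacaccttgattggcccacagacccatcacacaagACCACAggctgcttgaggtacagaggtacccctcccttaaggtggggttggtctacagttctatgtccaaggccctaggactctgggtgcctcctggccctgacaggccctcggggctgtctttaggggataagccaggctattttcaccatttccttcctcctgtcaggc
Itga2b: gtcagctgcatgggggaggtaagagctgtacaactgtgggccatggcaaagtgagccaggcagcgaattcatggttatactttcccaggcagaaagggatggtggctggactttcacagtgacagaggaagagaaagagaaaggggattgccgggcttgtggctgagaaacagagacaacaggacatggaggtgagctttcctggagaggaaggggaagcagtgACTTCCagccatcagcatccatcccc

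The motifs searched were AGATAA and TGATAA for GATA factors, GGAAGT for ETS factors, TGTGGT for RUNX factors and TGAGTCA for NF-E2 or AP-1, which do not overlap in these promoters. GGAAGT was found 5 to 10 bases before the start of Pf4, 21 to 26 before that of Itga2b and 235 to 240 before that of Gp9, which makes 3 of the 6 genes, and in 19.7% of all 32851 promoters of this length in the table. Pf4 and Itga2b carried it on the opposite strand and Gp9 on the gene's own. TGTGGT was found 166 to 171 bases before the start of Gp9, on the opposite strand, and in 14% of all promoters. AGATAA was found in 1 of the 2 Mrvi1 promoters (9.99% of all), 77 to 82 bases before its start, and TGATAA 2 times before Gp1ba (7.94%), 46 to 51 and 99 to 104 bases before its start. TGAGTCA (4.46%) was in none of the 7 windows, and the Selp window held none of these letters. A match is a run of letters and not a bound site.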

How the data were processed

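Total RNA of 5 cultures was hybridised to Affymetrix mouse arrays, 1 per construct. The deposited table holds RMA values on a log2 scale, per the submitters' processing notes for RMA. The sources used here give no RMA version. That the base is 2 follows from the highest value, 13.45, since natural logs of scanner readings end at 11.09. Computed here with Python 3.11.15 and pandas 2.3.3: 64 control probe sets were dropped, and 34945 probe sets with 1 annotated symbol kept. A gene's probe set with the highest mean stood for it, and genes whose highest value reached the 60th percentile (2.75) were kept. A gene was called where an array lay at least 1 (log2) beyond every other. With 1 array per construct no test was made. Precision cannot be estimated from the arrays.

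The members, the 11 gene lists (139 genes) and the rules were chosen with earlier results of these data known. Named were the members, up to 4 further genes per list with the widest range (at least 2-fold) and the 3 genes nearest to each member; further list genes were named after their values were seen. Alternatives covered the probe set, the filter, low values, scaling and leaving out an array. Promoters came from RefSeq (GRCm38.p6), with Itga2b, Pf4, Selp, Gp9, Gp1ba and Mrvi1 matched by symbol.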

Additional observations from a re-analysis of the deposited data

How the results depend on the processing

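Pf4 and Selp on ITD613 and Vwf and Mrvi1 on ITD78 stayed at least 2-fold beyond every other array under each alternative run. The counts were 2 below and 0 above on ITD613, and 0 below and 2 above on ITD78. Omitting another array cannot shorten these distances, so those runs could not lose a call. With _x_at and _s_at probe sets left out, Mrvi1 rested on its other probe set. That probe set lay in the low range on every array and gives no distance that can be sized. Of the differences of the 7 members from the mean of the other 4 arrays, 9 were at least 2-fold; there were 4 with low values raised to 3.74 and 5 to 12 when an array was left out, 5 without ITD613. No difference that was 2-fold in the reported setting changed sign; that of Vwf on ITD602 (-0.66) reached -1.06 without ITD598 and was 0.14 without ITD78. Counts of listed genes with a 2-fold range shifted in these settings, which were added after seeing the data. With probe sets of a gene averaged there were 2 adhesion receptor genes, 1 agonist receptor gene, 1 gene around Mrvi1 and 0 smooth muscle genes. With _x_at and _s_at probe sets left out there were 1 shape, granule and shedding gene, 1 gene around Mrvi1 and 0 smooth muscle genes. With low values raised there were 0 smooth muscle genes and 1 mast cell gene, and with each array centred on its median 0 smooth muscle genes. With an array left out the counts ran from 2 to 5 (granule), 1 to 4 (adhesion), 1 to 2 (agonist receptors), 1 to 6 (transcription factors), 1 to 2 (around Mrvi1), 0 to 1 (smooth muscle, 0 without ITD613 or ITD598), 2 to 3 (mast cell) and 5 to 7 (myeloid). The low ends of the first 5 came without ITD613. The cause of these shifts was not tested. No paired analysis was possible because each construct had 1 array.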
